A study of Komagataella phaffii with 26 samples.

Results

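The genes of upper glycolysis and the gene TYE7 were followed in Komagataella phaffii, a methylotrophic yeast used to produce proteins, after a shift to alkaline medium. The 7 genes, 6 enzyme genes and TYE7, were taken by name, accession or gene model. All 7 are in a deposited list that the study chose on these samples for its changed genes. Their levels come from the deposited expression table of 5040 gene models. GLK1 (C4R8F9, PAS_chr4_0624; chromosome 4, 1214762 to 1216201, minus strand) carries the name of the S. cerevisiae glucokinase, the enzyme that phosphorylates glucose on entry, although the deposited description beside it names no enzymatic activity. PGI1 (C4R4L7, PAS_chr3_0456; chromosome 3, 878576 to 880258, plus strand) encodes phosphoglucose isomerase, which turns glucose 6-phosphate into fructose 6-phosphate. PFK1 (C4R0J9, PAS_chr2-1_0402; chromosome 2, 739529 to 742498, plus strand), PFK2 (C4QXA5, PAS_chr1-4_0047; chromosome 1, 1496126 to 1498952, plus strand) and C4R7H4 (PAS_chr4_0943; chromosome 4, 618897 to 619952, plus strand) encode the alpha, beta and gamma subunits of phosphofructokinase. FBA1 (C4QW09, PAS_chr1-1_0072; chromosome 1, 680765 to 681850, plus strand) encodes fructose 1,6-bisphosphate aldolase. TYE7 (C4R6S8, PAS_chr4_0077) lies at 153020 to 154090 of chromosome 4, on the plus strand. Positions are gene models of the GS115 assembly (ASM2700v1), and none of the 7 overlaps another model.

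In glycolysis, the first enzymes trap glucose as a phosphorylated sugar, phosphofructokinase commits it to the pathway, and aldolase splits the resulting bisphosphate into triose phosphates. Phosphofructokinase works only in the glycolytic direction, whereas the isomerase and the aldolase also serve gluconeogenesis, which cells on glycerol need to make hexoses. In S. cerevisiae, Tye7 is a basic helix-loop-helix transcription factor that activates glycolytic genes. In the deposited gene table TYE7 is described only as a hypothetical protein, so its role as a regulator of glycolysis is known here from other yeasts alone.

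The 26 RNA-seq libraries come from cultures of the wild-type strain X-33, kept at 28 °C in yeast extract and peptone with glucose or glycerol at 20 g/L. Samples at 0, 15, 30 and 60 min form 3 courses, with 8 libraries from the shift to pH 8.0 on glucose, 8 from the shift to pH 8.2 on glycerol and 10 from the shift to pH 8.0 on glycerol. There are 12 groups of 2 libraries, save that the 15 min group of the last course has 4. All groups shared the buffer TAPS at 50 mM, and time zero was sampled on resuspension at pH 5.5. No culture kept at pH 5.5 was sampled later, so time in fresh medium and handling cannot be told apart from alkalinization. Per the study's methods each stressed culture gave samples at 15, 30 and 60 min, so p-values take as independent libraries that share cultures. On glycerol at pH 8.0, not all 4 libraries at 15 min can have partners from the same culture at 30 and 60 min.

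Levels are given as RPKM, reads scaled to the length of the gene model and to the mapped reads of the library, which allows genes of different length to be compared. The libraries hold 16.3 to 20.4 M reads (M = 1e6), and the 7 genes rest on at least 230 reads in each of them. Changes are log2 differences between group means of log2(RPKM + 1), fitted with limma over all 26 libraries and 5034 genes. A gene is said to rise or fall where the Benjamini-Hochberg adjusted p is below 0.05, and a 2-fold call also needs an unadjusted p below 0.01 and a log2 change of at least 1 in size. The median change of all genes lay between -0.08 and 0.13 in the 9 comparisons of a stressed group with time zero of its own course.

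Alkalinization was accompanied by opposite shifts of TYE7 and the enzyme genes. TYE7 rose in all 9 comparisons, by 9.60-fold to 23.6-fold, while at least 5 of the 6 enzyme genes fell in each of them. GLK1 and C4R7H4 were at least 2-fold lower in all 9 comparisons with time zero, PFK2 in 7, PGI1 and PFK1 in 5 each, and FBA1 in 2. FBA1 was the exception among the enzyme genes, since it did not pass the test at 15 min in any course.

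TYE7 was among the more expressed genes after the shift and among the less expressed ones before it. On glucose moved to pH 8.0, it had 12.7 and 12.8 RPKM at 0 min, 127 and 135 at 15 min, 226 and 211 at 30 min and 192 and 190.1 at 60 min. On glycerol moved to pH 8.2, the values were 13.98 and 15.8 at 0 min, 218 and 181 at 15 min, 305 and 335 at 30 min and 252 and 318.6 at 60 min. On glycerol moved to pH 8.0, TYE7 had 14.7 and 14.02 RPKM at 0 min, 169, 188, 227 and 223 at 15 min, 372 and 349.6 at 30 min and 259 and 239.8 at 60 min. The libraries with 169 and 188 RPKM carry codes outside the runs of consecutive library codes that span 0 to 60 min. Every stressed library lay far above every library of time zero, and the lowest stressed value, 127 RPKM on glucose at 15 min, stood against a highest value of 15.8 RPKM at time zero. Ranked by RPKM within a library, TYE7 stood between places 4433 and 4657 of 5040 at time zero, between 656 and 1196 at 15 min, between 375 and 690 at 30 min and between 447 and 799 at 60 min.

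**Figure D1:**
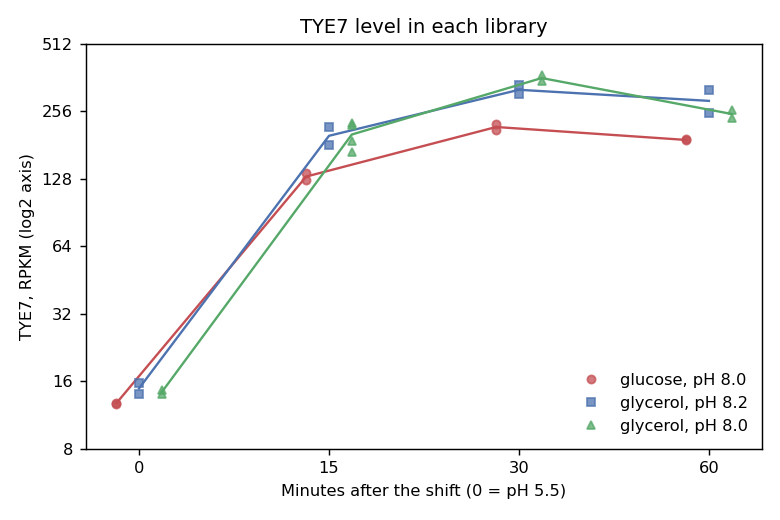
RPKM of TYE7 (log2 axis) in each of the 26 libraries against minutes after the shift (times evenly spaced), with points for libraries and lines through the group means, for glucose at pH 8.0, glycerol at pH 8.2 and glycerol at pH 8.0. All stressed libraries lie between 127 and 372 RPKM, and all libraries at time zero between 12.7 and 15.8 RPKM.

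On glucose, TYE7 rose by 3.26, 3.99 and 3.80 on the log2 scale at 15, 30 and 60 min (SE 0.13 each), where 2.60, 3.14 and 2.46% of all genes were at least 2-fold higher. At pH 8.2 on glycerol it rose by 3.65, 4.34 and 4.16 (SE 0.13), against 3.20, 4.41 and 5.70% of all genes, and at pH 8.0 by 3.72, 4.56 and 4.03 (SE 0.11 at 15 min and 0.13 later), against 3.14, 3.73 and 4.31%. The largest limma adjusted p of these 9 comparisons was 2.63e-13. In size, the rise of TYE7 stood between places 6 and 12 of all genes tested in each comparison. TYE7 is in the deposited list chosen for changed genes, so its rise beside these shares of all genes is no independent evidence.

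The mean level of TYE7 was highest at 30 min in every course: 218 ± 10.5 RPKM on glucose, 319.8 ± 21.02 on glycerol at pH 8.2 and 361 ± 15.9 on glycerol at pH 8.0 (SD, n = 2 each). Comparisons of neighbouring times were added after these values had been seen. TYE7 was higher at 30 than at 15 min in all 3 courses, by 0.73 on glucose, 0.68 on glycerol at pH 8.2 and 0.84 on glycerol at pH 8.0 (limma adjusted p = 0.00121, 0.00176 and 4.11e-05), where 19.6, 18.4 and 34.5% of all genes differed in either direction. In a fit of only the libraries of its own course, the call at pH 8.2 was lost (adjusted p = 0.0568). From 30 to 60 min it fell only on glycerol at pH 8.0, by 0.53 (adjusted p = 0.00526). The differences on glucose (-0.19, adjusted p = 0.33) and on glycerol at pH 8.2 (-0.17, adjusted p = 0.277) did not pass, and whether the courses differ in this step was not tested. Without replicate 2 at 60 min, the fall at pH 8.0 was 0.48 with an adjusted p of 0.0547.

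The level at 60 min was above that at 15 min in each course. The difference was 0.54 on glucose (SE 0.13, adjusted p = 0.00216), 0.51 on glycerol at pH 8.2 (SE 0.13, adjusted p = 0.00173) and 0.31 on glycerol at pH 8.0 (SE 0.11, adjusted p = 0.0198). Between these times, 44.1, 64.8 and 60.9% of all genes differed, and the median of all genes itself shifted by 0.13, 0.18 and 0.11. At pH 8.0 on glycerol the call was lost with libraries scaled by median ratios (0.19, adjusted p = 0.141), without replicate 1 at 15 min (0.23, adjusted p = 0.063) and without replicate 1 at 60 min (0.26, adjusted p = 0.143). It was also lost with runs of consecutive library codes as a block (0.14, adjusted p = 0.239). At pH 8.2 it was lost without replicate 2 at 60 min (0.34, adjusted p = 0.0525).

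Across the 12 groups, the stressed glycerol groups at 30 and 60 min held the highest levels of TYE7 and the 3 groups of time zero the lowest. Glycerol at pH 8.0 for 30 min stood apart at the top, and below it came glycerol at pH 8.2 for 30 and 60 min (285 ± 46.9 RPKM at 60 min) and glycerol at pH 8.0 for 60 min (249 ± 13.7), each overlapping with the next of these 3. Glucose for 30 min, both glycerol groups for 15 min (199 ± 26.5 RPKM at pH 8.2, n = 2, and 202 ± 28.2 at pH 8.0, n = 4) and glucose for 60 min (191 ± 1.33) likewise each overlapped with the next. Glucose for 15 min (131 ± 6.10) stood apart below them, and at time zero the glycerol groups overlapped while glucose was lowest.

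The enzyme genes differed widely in level, and this order hardly changed. FBA1 was the highest and C4R7H4 the lowest of the 6 in all 26 libraries. PGI1 was second except in 3 glucose libraries (both of time zero and replicate 2 at 15 min), in which GLK1 was. The summed RPKM of the 6 genes averaged 8626, 7005, 4490.4 and 2779 on glucose at 0, 15, 30 and 60 min, 3795, 2719.9, 1964 and 2731 on glycerol at pH 8.2, and 5173.5, 3166, 2384 and 2581 on glycerol at pH 8.0. The group means of the 3 courses spanned 2581 to 2779 after 60 min and 3795 to 8626 at time zero. FBA1 carries much of the sum, with a mean of 4992 RPKM on glucose at 15 min and 1573 at 60 min. The sum thus says little of the others, and mean GLK1 at 60 min was 314 on glucose and 236 on glycerol at pH 8.0.

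All 6 enzyme genes are in the deposited list that the study chose on these samples for its changed genes, so their counts are no independent evidence. On glucose, 5, 6 and 6 of the 6 enzyme genes fell at 15, 30 and 60 min, where 20.4, 14.6 and 11.1% of all genes fell. On glycerol at pH 8.2, 5, 6 and 5 fell against 26.2, 15.9 and 21% of all genes, and at pH 8.0, 5, 6 and 6 against 27.2, 12.3 and 16.8%. At least 2-fold lower were 4, 5 and 6 genes on glucose (background 2.82, 2.68 and 2.21%), 4, 3 and 2 on glycerol at pH 8.2 (2.5, 2.26 and 2.58%) and 5, 4 and 4 on glycerol at pH 8.0 (2.44, 2.09 and 1.45%). The median log2 change of the 6 genes was -1.14, -1.43 and -1.70 on glucose, -1.19, -1.10 and -0.89 on glycerol at pH 8.2, and -1.27, -1.15 and -1.16 on glycerol at pH 8.0. It moved away from 0 with time on glucose, and at pH 8.2 on glycerol it was nearer to 0 at 60 than at 15 min.

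**Figure D2:**
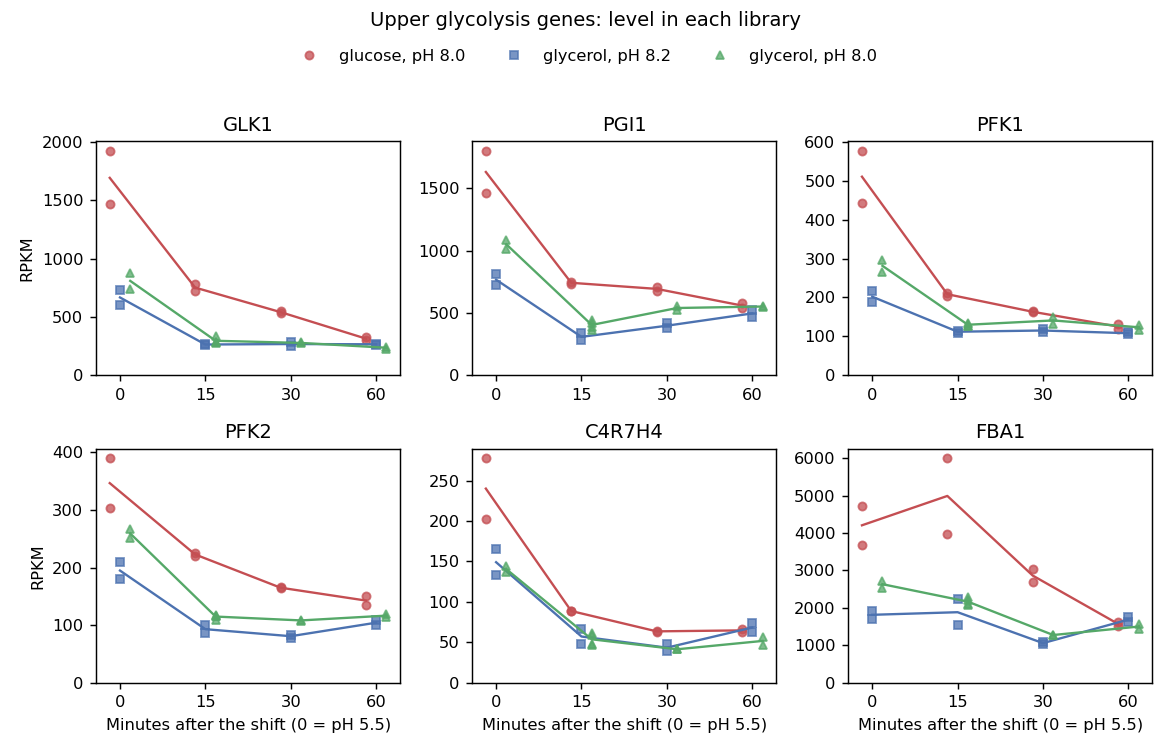
RPKM of the 6 enzyme genes (1 panel each, axis from 0) in each library against minutes after the shift (times evenly spaced), with points for libraries and lines through group means, for glucose at pH 8.0, glycerol at pH 8.2 and glycerol at pH 8.0. GLK1, PGI1, PFK1, PFK2 and C4R7H4 were lower in each stressed library than in each library of time zero of the same course, whereas FBA1 at 15 min overlapped with time zero on glucose and at pH 8.2. By the test, 11.1 to 27.2% of all genes fell in these comparisons. The share of all genes without overlap is not given, and groups of 2 libraries separate easily.

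GLK1, at the entry of the pathway, had the most negative change of the 6 genes on glucose at 60 min. On glucose it had 1463 and 1919 RPKM at 0 min, 722 and 781 at 15 min, 530.0 and 552 at 30 min and 326 and 303 at 60 min. Its level stepped down at each time, with no overlap between libraries of different times, and the log2 change was -1.16, -1.63 and -2.41 (SE 0.12 each). At pH 8.2 on glycerol the values were 606 and 727 at 0 min, 269 and 258 at 15 min, 249 and 286 at 30 min and 264 and 268 at 60 min. At pH 8.0 on glycerol they were 742 and 875 at 0 min, 282, 289, 333 and 278 at 15 min, 273 and 282 at 30 min and 245 and 227 at 60 min. With glycerol the libraries at 15, 30 and 60 min lay close together, and the log2 changes were -1.33, -1.31 and -1.32 at pH 8.2 and -1.45, -1.54 and -1.77 at pH 8.0. After 60 min GLK1 was 5.32-fold lower on glucose, 2.49-fold lower on glycerol at pH 8.2 and 3.41-fold lower on glycerol at pH 8.0 than at time zero (limma adjusted p = 1.39e-11, 4.04e-08 and 1.12e-09).

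PGI1 was higher at 60 than at 15 min on glycerol and lower on glucose, and it was below time zero throughout. On glucose it had 1460.5 and 1799.9 RPKM at 0 min, 733 and 751 at 15 min, 678 and 708 at 30 min and 579 and 540.0 at 60 min. In the glycerol course to pH 8.2 it had 722 and 811 at 0 min, 281 and 336 at 15 min, 379 and 416 at 30 min and 466 and 527 at 60 min. The libraries at 60 min lay above those at 15 min on glycerol and below them on glucose. In the glycerol course to pH 8.0 its values were 1014 and 1086 at 0 min, 365, 389.6, 439.6 and 421 at 15 min, 524 and 556 at 30 min and 551 and 552 at 60 min. Against time zero, PGI1 fell by 1.13, 1.23 and 1.53 on glucose, by 1.31, 0.94 and 0.63 on glycerol at pH 8.2 and by 1.38, 0.96 and 0.93 on glycerol at pH 8.0 on the log2 scale. At 60 against 15 min it was lower by 0.41 on glucose (adjusted p = 0.00506; 0.0512 without glucose replicate 2 at 60 min, at -0.36), and higher by 0.69 at pH 8.2 and 0.45 at pH 8.0 on glycerol (adjusted p = 2.09e-05 and 0.000427).

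The genes of the 3 phosphofructokinase subunits all fell in every comparison, but not by the same amount. C4R7H4, the gamma subunit gene, had 203 and 277 RPKM at 0 min on glucose, 88.9 and 88.6 at 15 min, 64.1 and 63.1 at 30 min and 66.3 and 63.3 at 60 min. At pH 8.2 on glycerol it had 133 and 165 at 0 min, 66.6 and 47.7 at 15 min, 48.1 and 38.7 at 30 min and 73.5 and 63.1 at 60 min. At pH 8.0 the glycerol values were 137 and 144 at 0 min, 59.5, 61.3, 47.8 and 46.4 at 15 min, 41.4 and 41.4 at 30 min and 56.2 and 47.3 at 60 min. The libraries with 59.5 and 61.3 RPKM are those with codes outside the runs that span 0 to 60 min. Its mean was lowest at 30 min in all 3 courses, although the libraries at 30 min overlapped with those at 60 min on glucose and with those at 15 min at pH 8.2. At 30 min the log2 change was -1.88 on glucose, -1.76 on glycerol at pH 8.2 and -1.74 on glycerol at pH 8.0 (SE 0.17 each), the most negative of the 6 genes at that time in each course. It rests on 678 to 4906 reads a library, the fewest of the 6.

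PFK1, the alpha subunit gene, had 443 and 577 RPKM at 0 min on glucose, 205 and 212 at 15 min, 164 and 162 at 30 min and 132 and 119 at 60 min. On glycerol it had 187 and 217 at 0 min, 109 and 115 at 15 min, 110.5 and 119.7 at 30 min and 106 and 110.2 at 60 min of the course to pH 8.2. In the course to pH 8.0 the values were 266 and 297 at 0 min, 126, 127, 133 and 134 at 15 min, 132 and 150.0 at 30 min and 118 and 129 at 60 min. Its change moved further below 0 with time on glucose (-1.28, -1.63 and -2.01 on the log2 scale; SE 0.10 each), and on glycerol its change was about the same at all 3 times, with -0.84, -0.80 and -0.89 at pH 8.2 and -1.11, -0.99 and -1.18 at pH 8.0.

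PFK2, the beta subunit gene, had the smallest change of the 3 on glucose at each time. Its RPKM on glucose was 303 and 390.5 at 0 min, 220.5 and 225 at 15 min, 164 and 166 at 30 min and 151 and 135 at 60 min. At pH 8.2 on glycerol it was 180.0 and 209.6 at 0 min, 85.6 and 101 at 15 min, 77.9 and 83.8 at 30 min and 100.4 and 108 at 60 min, and at pH 8.0 it was 251 and 267 at 0 min, 116, 116, 118 and 109.6 at 15 min, 107 and 109 at 30 min and 119 and 114 at 60 min. The log2 changes were -0.62, -1.05 and -1.26 on glucose, -1.06, -1.25 and -0.89 on glycerol at pH 8.2 and -1.17, -1.25 and -1.15 on glycerol at pH 8.0 (SE 0.09 to 0.10).

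Within a library, PFK1 stood to PFK2 in a ratio of 0.874 to 1.479 over all 26 libraries. On glucose the ratio was between 0.874 and 1.00 in the 6 stressed libraries, against 1.46 and 1.479 in the libraries of time zero, so the groups did not overlap. On glycerol it went the other way up to 30 min: at pH 8.2 the mean ratio was 1.04 at 0 min, 1.21 at 15 min, 1.42 at 30 min and 1.04 at 60 min, and at pH 8.0 it was 1.085, 1.13, 1.301 and 1.06. PFK2 was above PFK1 in 6 libraries, 5 of them stressed glucose libraries and the other glycerol at pH 8.0 for 60 min, replicate 1. The ratio of C4R7H4 to PFK2 ran from 0.379 to 0.787, and on glucose it was 0.380 to 0.470 after the shift, against 0.670 and 0.710 at time zero. These ratios describe transcripts, and no test was run on them.

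**Figure D3:**
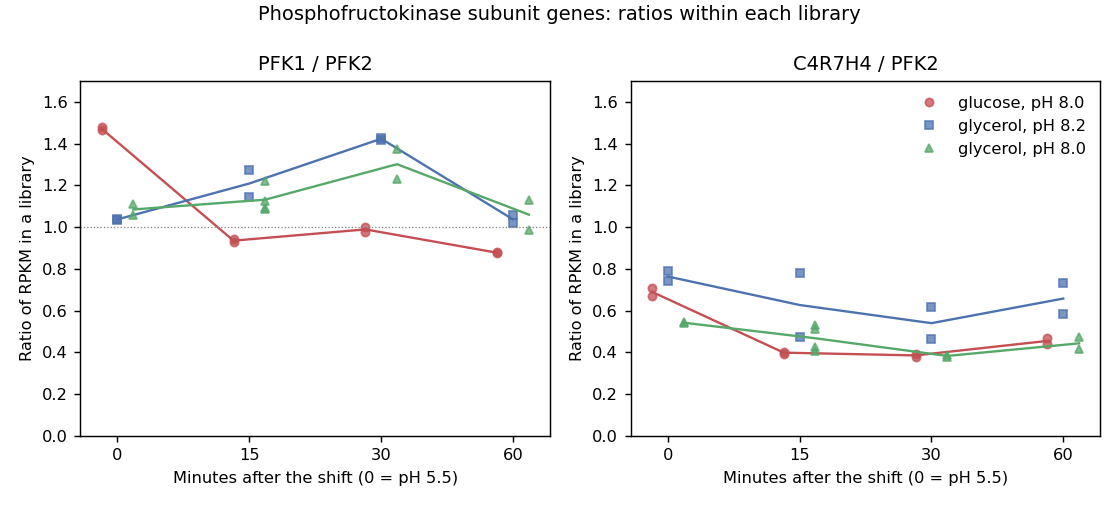
Ratio of RPKM within each library, PFK1 to PFK2 (left) and C4R7H4 to PFK2 (right), against minutes after the shift (times evenly spaced), with points for libraries and lines through group means. On glucose PFK1 to PFK2 lies between 0.874 and 1.00 after the shift, against 1.46 and 1.479 at time zero.

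FBA1, the aldolase gene and the most abundant of the 6, did not pass the test at 15 min, unlike the others, and fell between 15 and 30 min. On glucose it had 3686 and 4729 RPKM at 0 min, 3982 and 6002 at 15 min, 2689 and 3039.6 at 30 min and 1624 and 1521 at 60 min. With glycerol and pH 8.2 it had 1712 and 1920.1 at 0 min, 1538 and 2233 at 15 min, 1081 and 1038 at 30 min and 1758 and 1619 at 60 min. With glycerol and pH 8.0 it had 2538 and 2729 at 0 min, 2101, 2281, 2070.1 and 2220.1 at 15 min, 1266 and 1286 at 30 min and 1577 and 1427 at 60 min. The libraries at 15 min overlapped with time zero on glucose and at pH 8.2, where the replicates lay far apart, whereas at pH 8.0 all 4 were below time zero. At 15 min the log2 change was 0.23 on glucose (95% interval -0.11 to 0.57), 0.03 on glycerol at pH 8.2 (-0.31 to 0.37) and -0.28 on glycerol at pH 8.0 (-0.58 to 0.02), with adjusted p of 0.3, 0.894 and 0.111.

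The fall of FBA1 between 15 and 30 min was found in all 3 courses, a comparison added after the values had been seen. The difference of 30 against 15 min was -0.77 on glucose, -0.81 on glycerol at pH 8.2 and -0.76 on glycerol at pH 8.0 (limma adjusted p = 0.00416, 0.00296 and 0.000869). From 30 to 60 min FBA1 fell further on glucose (-0.86, adjusted p = 0.00106), rose on glycerol at pH 8.2 (0.67, adjusted p = 0.00229) and had a difference of 0.23 on glycerol at pH 8.0 (adjusted p = 0.31), with 18.7, 49.6 and 25.9% of all genes differing between these times. Against time zero FBA1 was lower by 0.55 and 1.41 on glucose at 30 and 60 min, by 0.77 on glycerol at pH 8.2 at 30 min, and by 1.04 and 0.81 on glycerol at pH 8.0. At 60 min of pH 8.2 the difference from time zero was -0.10 (95% interval -0.45 to 0.24, adjusted p = 0.606).

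Single libraries decided some of these calls for FBA1. On glucose, the difference at 15 min was 0.52 (adjusted p = 0.0263) without replicate 1 at 15 min and -0.07 (adjusted p = 0.813) without replicate 2. The fall on glucose at 30 min was lost without replicate 2 of time zero (-0.37, adjusted p = 0.197) and without replicate 1 at 30 min (-0.46, adjusted p = 0.121). The drop from 15 to 30 min was lost on glucose without replicate 2 at 15 min (-0.48, adjusted p = 0.107) or replicate 1 at 30 min (-0.69, adjusted p = 0.059), and at pH 8.2 without replicate 2 at 15 min (-0.54, adjusted p = 0.0829) and in a fit of only that course (adjusted p = 0.0551).

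C4QWS2 (PAS_chr1-1_0319), a gene on chromosome 1 that carries the same aldolase description as FBA1, stood to FBA1 in a ratio of 0.0012 to 0.012 in RPKM within a library. On glucose it had 12.1 and 12.6 RPKM at 0 min, 6.26 and 7.23 at 15 min, 8.74 and 8.15 at 30 min and 11.002 and 14.2 at 60 min. In the 9 comparisons it fell in 5 and rose in 1, at pH 8.2 after 60 min (log2 change 0.58). Reads shared between the aldolase genes were not examined, so its level is uncertain.

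**Figure D4:**
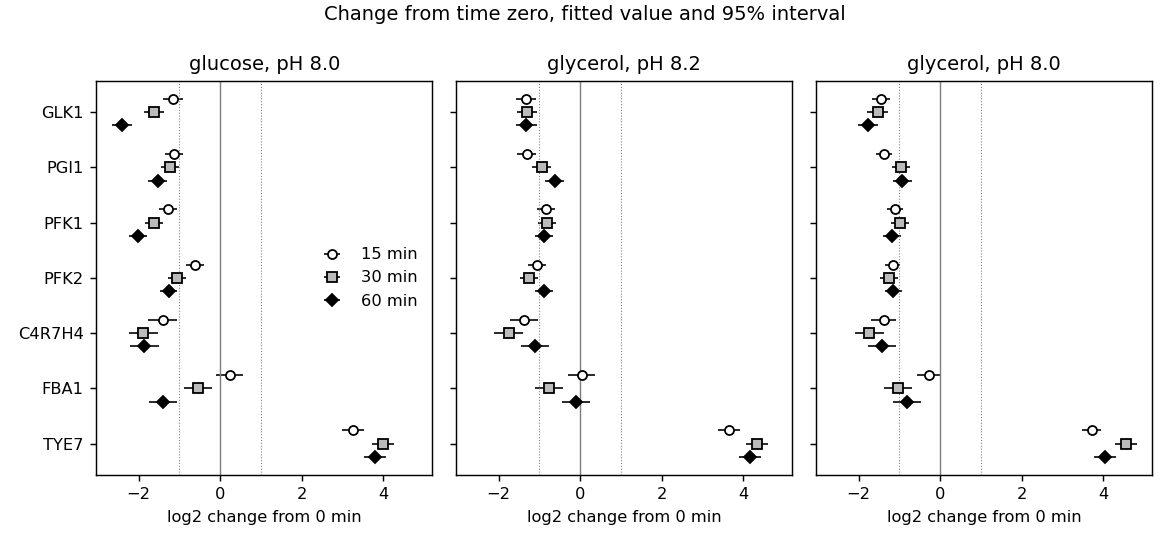
Log2 change of the 7 genes from time zero at 15, 30 and 60 min (fitted limma value and 95% interval), in panels for glucose at pH 8.0, glycerol at pH 8.2 and glycerol at pH 8.0, with dotted lines at a log2 change of 1 in each direction. TYE7 lies between 3.26 and 4.56, and the enzyme genes other than FBA1 between -2.41 and -0.62.

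The course from 15 to 60 min differed between the enzyme genes. On glucose all 6 were lower at 60 than at 15 min (background 44.1% of genes in either direction), GLK1 and FBA1 at least 2-fold, with -1.25 and -1.64 on the log2 scale. Without any 1 of the 4 glucose libraries at these times, 4 to 5 of the 6 passed. PFK1 was lower by 0.73, PFK2 by 0.64 and C4R7H4 by 0.45. The call for C4R7H4 (adjusted p = 0.0379) was lost without any 1 of the 4 glucose libraries at 15 and 60 min (adjusted p = 0.0927 to 0.145, at -0.48 to -0.42). On glycerol at pH 8.2 PGI1 alone passed of the 6 (background 64.8%), and C4R7H4 joined it, higher by 0.50 (adjusted p = 0.0268), without replicate 1 at 15 min. On glycerol at pH 8.0, GLK1 (-0.32) and FBA1 (-0.53) were lower and PGI1 higher (background 60.9%), and without replicate 2 at 60 min GLK1 (-0.26, adjusted p = 0.12) and FBA1 (-0.46, adjusted p = 0.0535) did not pass.

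Before the shift, all 6 enzyme genes were higher on glucose than on glycerol (mean of both glycerol courses), where 9.44% of all genes were. GLK1 was higher by 1.19, PFK1 by 1.09, FBA1 by 0.93, PGI1 by 0.85, C4R7H4 by 0.71 and PFK2 by 0.61 on the log2 scale (SE 0.09 to 0.15; largest limma adjusted p 0.00199). GLK1 and PFK1 passed the 2-fold call, which 0.934% of all genes did. For C4R7H4 the call was lost without replicate 2 of glucose at time zero (0.49, adjusted p = 0.104). TYE7 differed by -0.18 (95% interval -0.41 to 0.05, adjusted p = 0.248), which did not pass.

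The time zero libraries of the glycerol courses, which share medium and pH, differed in 4 of the 6 enzyme genes. Their library codes belong to different series, whose part was not tested. In a comparison added after the values had been seen, PGI1 (-0.45), PFK1 (-0.48), PFK2 (-0.41) and FBA1 (-0.54) were lower at time zero of the course to pH 8.2 than at time zero of the course to pH 8.0 (adjusted p = 0.00949, 0.0059, 0.0126 and 0.0325), where 16.5% of all genes differed. GLK1 (-0.28, adjusted p = 0.111), C4R7H4 (0.08) and TYE7 (0.05) did not pass. None of the 4 calls was kept without replicate 2 of time zero of the course to pH 8.0 (-0.49 to -0.37, adjusted p = 0.0835 to 0.172) or without replicate 1 of the other (-0.45 to -0.30, adjusted p = 0.0864 to 0.18), and FBA1 lost its call without any 1 of the 4 libraries. The change of each course is given against its own time zero.

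The falls on glucose and on glycerol at pH 8.0 were compared through the difference of their log2 changes. At 15 min 1 of the 6 enzyme genes differed, PFK2 by 0.54 (95% interval 0.26 to 0.83; adjusted p = 0.0245), with a change of -0.62 on glucose and -1.17 on glycerol (background 6% of genes). At 30 min PFK1 differed by -0.63 (-0.94 to -0.32; adjusted p = 0.0349; background 1.29%), having fallen by 1.63 on glucose and by 0.99 on glycerol. At 60 min PFK1 (-0.83, -1.14 to -0.52), GLK1 (-0.64, -0.997 to -0.29) and PGI1 (-0.61, -0.93 to -0.29) had fallen further on glucose (adjusted p = 0.00338, 0.0302 and 0.0257; background 5.9%). After 60 min GLK1 stood at 314 ± 15.96 RPKM on glucose and 236 ± 13.2 on glycerol at pH 8.0, PGI1 at 559 ± 27.4 and 551 ± 0.82, and PFK1 at 125 ± 9.30 and 123 ± 8.26 (SD, n = 2 each). The libraries of PGI1 and PFK1 then overlapped between the carbon sources, whereas at time zero all glucose libraries were above all glycerol libraries. By the test, 9.44% of all genes were higher on glucose at time zero, and the share without overlap is not given.

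Of these 5 differences only PFK1 at 60 min held without each library in turn. PFK2 at 15 min was lost without either glycerol library or replicate 1 of glucose at time zero, or either glucose library at 15 min (adjusted p = 0.0581 to 0.133, at 0.36 to 0.59), and also against the pooled time zero of both glycerol courses (0.34, adjusted p = 0.367). PFK1 at 30 min was lost without either glycerol library or replicate 2 of glucose at time zero, glycerol replicate 2 at 30 min or either glucose library at 30 min (adjusted p = 0.0517 to 0.218, at -0.71 to -0.44), and with median-ratio scaling (-0.59, adjusted p = 0.0864). GLK1 and PGI1 at 60 min were lost without glycerol replicate 1 or glucose replicate 2 of time zero, or any 1 of the 4 libraries at 60 min (adjusted p = 0.0612 to 0.17 at -0.70 to -0.45 for GLK1, and 0.0513 to 0.144 at -0.66 to -0.46 for PGI1). FBA1 differed by 0.51, 0.50 and -0.60 at 15, 30 and 60 min and C4R7H4 by -0.03, -0.15 and -0.43, none of which passed (FBA1 at 15 min without glucose replicate 1 at that time, 0.80 with an adjusted p of 0.0386). The rise of TYE7 on glucose minus that on glycerol was -0.45, -0.57 and -0.23 at 15, 30 and 60 min, and these differences did not pass (adjusted p = 0.114, 0.158 and 0.507; 95% intervals -0.81 to -0.10, -0.95 to -0.19 and -0.60 to 0.15). With runs of consecutive library codes as a block they passed at 15 min (-0.62, adjusted p = 0.0242) and 30 min (-0.57, adjusted p = 0.0491).

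**Figure D5:**
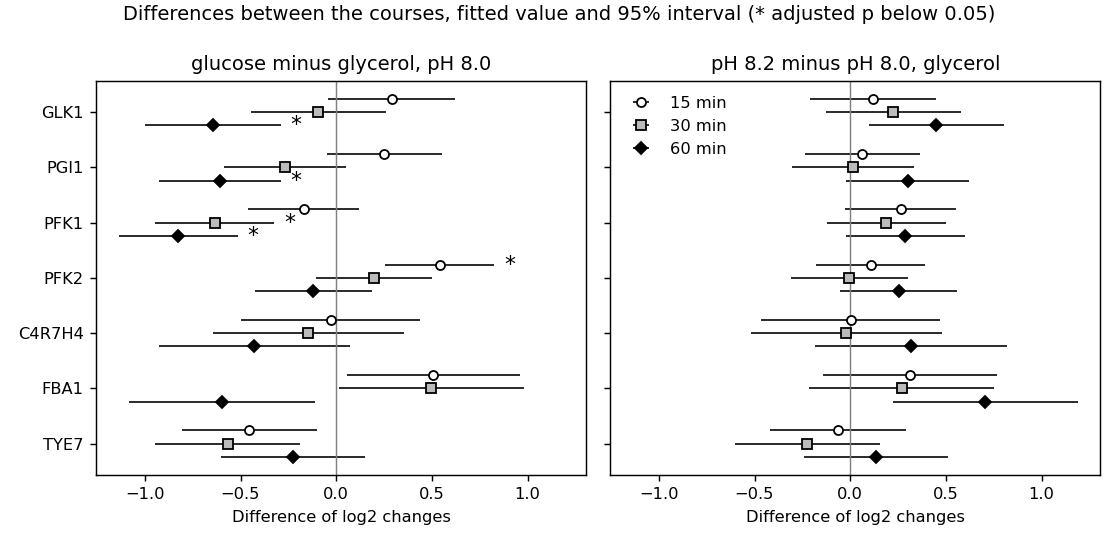
Difference of log2 changes (fitted limma value and 95% interval) for the 7 genes at 15, 30 and 60 min, glucose minus glycerol at pH 8.0 (left) and pH 8.2 minus pH 8.0 on glycerol (right). Asterisks mark the 5 differences with an adjusted p below 0.05, all of them on the left.

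The changes at pH 8.2 and pH 8.0 on glycerol did not differ past the test for any of the 7 genes at 15, 30 or 60 min. The libraries of these courses carry different series of codes, whose part was not tested. The 21 differences ran from -0.22 (TYE7 at 30 min) to 0.71 (FBA1 at 60 min), and their 95% intervals together spanned -0.60 to 1.19. With limma 0% of all genes passed at the adjusted p at each time, and 11.7, 7.37 and 14.1% were at an unadjusted p below 0.05. Of the 21 differences, 2 were below that unadjusted threshold, FBA1 (0.71, limma adjusted p = 0.16) and GLK1 (0.45, adjusted p = 0.213), both at 60 min. For the enzyme genes 16 of 18 differences were above 0. Time zero of the course to pH 8.2, with lower means than that of the course to pH 8.0 save for C4R7H4, enters each of them. With the pooled time zero of both glycerol courses as baseline, the difference at 60 min was 0.17 for FBA1 and 0.17 for GLK1, and neither passed. With that shared baseline the value compares only the levels at 60 min. No test was made of the part of time zero itself. For TYE7 the intervals were -0.42 to 0.29, -0.60 to 0.15 and -0.24 to 0.51 at 15, 30 and 60 min.

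Of the rest of glycolysis and gluconeogenesis, 10 further genes could be found by their names and descriptions. All 10 come from the same deposited list, which the study chose on these samples for its changed genes. Their counts are thus no independent evidence, and the steps with no such gene were not analysed here. On glucose 5, 5 and 6 of the 10 fell at 15, 30 and 60 min, on glycerol at pH 8.2 it was 5, 7 and 4, and at pH 8.0 it was 6, 7 and 5. Of all genes, 20.4, 14.6 and 11.1% fell on glucose, 26.2, 15.9 and 21% at pH 8.2 and 27.2, 12.3 and 16.8% at pH 8.0 in the same comparisons. PFK26, named after the S. cerevisiae enzyme that makes fructose 2,6-bisphosphate, an activator of phosphofructokinase, was the only one of the 10 that rose in all 9 comparisons, by 0.58 to 1.78 on the log2 scale. It was at least 2-fold higher in 5 of them, and 2.46 to 5.7% of all genes were at least 2-fold higher over the 9. GCR1, which carries the name of another S. cerevisiae activator of glycolytic genes, was at least 2-fold lower in 7 of 9 comparisons, where 1.45 to 2.82% of all genes were. At 15 min its log2 change was -3.03 on glucose, -2.59 at pH 8.2 and -1.77 at pH 8.0 on glycerol, against 3.26, 3.65 and 3.72 for TYE7. By 60 min mean GCR1 was 17.5 RPKM, against 15.7 at time zero, on glycerol at pH 8.0, and 23.6 against 33.3 at pH 8.2. The time zero libraries of the course to pH 8.0 had 11.1 and 20.3 RPKM. Since the glycerol courses also differ at time zero, the sizes of these GCR1 changes on glycerol are uncertain. On glucose it was 14.7 against 37.4, while TYE7 remained raised in every course. GCR1 rests on 55 to 769 reads a library.

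The gluconeogenic genes FBP1 (fructose 1,6-bisphosphatase) and PCK1 (phosphoenolpyruvate carboxykinase) were each at least 2-fold lower in 6 of 9 comparisons, where 1.45 to 2.82% of all genes were. At 60 min FBP1 had log2 changes of -1.11, 0.03 and -0.09 on glucose and on glycerol at pH 8.2 and pH 8.0, none of which passed. Of the lower glycolytic genes, the phosphoglycerate mutase gene GPM1 (C4R5A6) fell in all 9 comparisons, by 0.47 to 2.19 on the log2 scale. A second gene with the same name, GPM1 (C4R5P4), fell in 5, the enolase gene ENO1 in 6, the phosphoglycerate kinase gene PGK1 in 4 and the triose phosphate isomerase gene TPI1 in 1. On glucose at 60 min PGK1 (-1.35), GPM1 (C4R5P4; -1.26), ENO1 (-1.15) and TPI1 (-0.88) all fell, and at 15 min on glucose none of these 4 passed. Reads shared between the GPM1 genes were not examined.

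Over the 12 group means, the genes most like TYE7 by Pearson correlation were PHO89 (a sodium/phosphate cotransporter; r = 0.995), ENA2 (a sodium pump; 0.993), PAS_chr3_0569 (0.989), VTC2 (vacuolar polyphosphate accumulation; 0.985) and GAS1 (cell wall assembly; 0.985). The mean of the 6 enzyme genes was most like URA1 (0.984), the pyruvate decarboxylase gene PDC1 (0.981), PAS_chr2-1_0379 (0.966), the ferric reductase gene FRE3 (0.956) and PAS_chr1-1_0134 (0.953). With Spearman's rho in its place none of the 5 genes nearest to TYE7 stayed among the first 5, and PDC1 (0.972) and FRE3 (0.965) stayed among those nearest to the enzyme genes. TYE7 and the mean of the enzyme genes had r = -0.85 and rho = -0.84 over these 12 means. Within the enzyme genes, r with their mean ran from 0.82 for FBA1 to 0.99 for GLK1, and each gene is itself part of that mean, which raises r. The 12 points share time zero libraries and cultures, and the values are descriptions only.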

How the data were processed

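Per the study's methods, the authors made non-directional poly-A libraries, mapped single reads with Bowtie2 to the GS115 genome and computed RPKM with SeqMonk. The authors deposited 1 RPKM column per library, with 5040 gene models that match assembly ASM2700v1 and no column without a labelled sample. At least 99.94% of the values of a library are whole reads to within 0.01 read, from which 16.3 to 20.4 M reads (M = 1e6; median 18.6) were recovered for depth. A second deposited table holds the authors' log2 fold changes and p-values against time zero for 772 genes, of which only names and descriptions were used.

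limma 3.58.1 (R 4.3.3) fitted 12 group means to log2(RPKM + 1) over all 26 libraries (14 residual degrees of freedom, empirical Bayes with a trend), on the 5034 genes with at least 1 RPKM in at least 2 libraries. The Benjamini-Hochberg adjustment was made over all genes of a comparison, and 95% intervals are not adjusted for the number of genes. Stressed groups were compared with time zero of their course and 60 with 15 min, and glucose with glycerol at time zero. The changes on glucose and at pH 8.2 were set against those on glycerol at pH 8.0 as differences of differences. Script steps were tested on simulated data.

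The 7 genes and the lists were chosen with earlier results of these data known. All 7 genes are named, together with every described gene of glycolysis and gluconeogenesis and the 5 genes most like TYE7 and most like the mean of the enzyme genes. Alternatives were other pseudocounts (0.1 and 10), no filter, median-ratio scaling, only the courses compared, no trend, a shared glycerol baseline, blocks for the replicate number and for runs of library codes, and each library left out in turn. Comparisons of neighbouring times and of the glycerol courses at time zero were added after the data were seen. No sequence is shown, since the reference table used here holds none.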

Additional observations from a re-analysis of the deposited data

Results flagged for a closer look

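The change after alkalinization differed between glucose and glycerol at pH 8.0 in 5 comparisons of enzyme genes, by limma's test of the difference itself. The difference of log2 changes, glucose minus glycerol, was 0.54 for PFK2 at 15 min, -0.63 for PFK1 at 30 min, and -0.64 for GLK1, -0.61 for PGI1 and -0.83 for PFK1 at 60 min. The libraries of the glycerol course to pH 8.0 carry another series of codes than the glucose libraries, whose part in these differences was not tested. At time zero each of the 6 enzyme genes was higher in both glucose libraries than in all 4 glycerol libraries. By the test, 9.44% of all genes were higher on glucose then. These levels before the shift do not bear on the part of the series in the differences. No gene had a library that stood apart by Dixon's test in the only group of 4 libraries.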

How the results depend on the processing

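Of 833 values of single genes in the comparisons of stressed groups with time zero, 825 kept their direction and side of the threshold under the 9 settings and with each of the 26 libraries left out in turn. Over all comparisons this held for 1397 of 1462 values, and for 82 of 108 single-gene results under every alternative. Without the trend or the filter, or in a fit of only the courses compared, the differences stay equal. There only the side of the threshold could change. Of 20 counts of enzyme genes called, 10 were equal under every alternative. The difference of FBA1 at 15 min on glycerol at pH 8.2, which did not pass the test, was -0.24 with all 4 glycerol libraries of time zero as baseline and -0.24 to 0.30 with libraries left out, and on glucose it was -0.068 to 0.52. The number of the 6 enzyme genes whose change differed between glucose and glycerol was 0 in place of 1 at 30 min with median-ratio scaling and at 15 min with all 4 glycerol libraries of time zero, and with libraries left out it was 0 to 1 at 15 min, 0 to 1 at 30 min and 1 to 3 at 60 min. Left-out libraries also gave 4 to 5 genes in place of 6 differing between 60 and 15 min on glucose, 1 to 3 on glycerol at pH 8.0, 1 to 2 at pH 8.2, and 0 to 3 in place of 4 between the glycerol courses at time zero. They gave 5 to 6 genes lower at 30 min on glucose and 5 to 6 higher on glucose at time zero. With runs of library codes as a block, the difference of the rise of TYE7, glucose minus glycerol, passed at 15 min (-0.62, adjusted p = 0.0242) and 30 min (-0.57, adjusted p = 0.0491), and the difference of TYE7 between 60 and 15 min on glycerol at pH 8.0 was 0.14 (adjusted p = 0.239). In a fit of only the courses compared, the fall of FBA1 at 15 min on glycerol at pH 8.0 passed (-0.28, adjusted p = 0.0114), which made 6 enzyme genes lower in place of 5. TYE7 at 60 against 30 min on glucose also passed (-0.19, adjusted p = 0.0499), whereas at 30 against 15 min on glycerol at pH 8.2 TYE7 (adjusted p = 0.0568) and FBA1 (adjusted p = 0.0551) did not.

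The replicate numbers are not stated to mark shared cultures. Libraries with the same number correlated in their deviations from the group means by 0.111 to 0.351 on glucose, 0.0659 to 0.701 at pH 8.2 and -0.0499 to 0.628 at pH 8.0 on glycerol. With the replicate block all 97 single-gene results that could be fitted kept their direction and side of the threshold, and all 18 counts were equal. Between groups of 2 libraries the block leaves the fitted difference as it was, as for TYE7 at 30 min on glycerol at pH 8.0 with 4.56. There the direction could not change, and only the p-values could. The difference itself could change only where the group of 4 libraries entered. With 2 libraries in most groups, the fit takes the spread as equal in all groups, and 4 of the 5 calls between glucose and glycerol were lost without single libraries.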
